A study of Mus musculus with 10 samples.

Results

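Wasl, Capza2, Myo10, Trio, Coro2a, Rai14 and Tes encode proteins that build, cap, move along or hold actin filaments. They were taken as a named list of genes tied to the cell movement that reseals a damaged epithelium (restitution). The list was chosen with earlier results of these data known. The 7 genes are 7 of 55416 rows of the count tables, and 7 of the 1415 rows in the 3 stretches of the genome where counts were found to follow gene names. Restitution itself was not measured. The genes were described in RNA from whole colon, where fewer cells of a type and less RNA per cell cannot be told apart.

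RNA of colon from mice without Vista, an immune checkpoint protein encoded by Vsir, was sequenced beside RNA of wild-type (WT) colon. Every mouse had received 2% dextran sulfate sodium (DSS), which injures the colonic epithelium, in drinking water for 7 days, so there was no untreated colon. Each genotype had 5 libraries. Libraries 1 to 3 of each genotype were in a first deposited table, and libraries 4 and 5 in a second. The genotype was called a knockdown in the labels of knockout (KO) libraries 1 to 3, and a deletion in those of the later libraries and in the design text. The sources used here gave no strain, sex, age or kind of allele. The design text spoke of biological replicates but counted 3 per group, and the labels give each of the 10 libraries its own sample number without saying whether it stands for an animal, so the error behind each p-value is that between libraries, which may be technical.

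Surface epithelial cells at the edge of a wound flatten, extend lamellipodia and filopodia and crawl over the denuded matrix. Branched actin networks are nucleated by the Arp2/3 complex once a WASP family protein is switched on by Cdc42 or Rac, capping protein stops filaments from growing at their fast end, and adhesion proteins tie the filaments to the membrane. Actin remodelling of this kind is also used by smooth muscle, fibroblasts and immune cells, all present in colon.

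The libraries held 3691322 to 4071238 counts, of which 9.904% to 10.636% lay inside the 3 stretches. These ran over chr4:3103759-59894924, chr6:3072137-30175126 and chr15:10446756-38079563 of mm10. Outside them rows could not be read by name: Actb, which encodes β-actin, had 75 counts over all 10 libraries and the villin gene Vil1 had 29. The Vsir row, with 453 counts, lies outside too, so it does not check the genotype labels. Inside the stretches the epithelial cadherin gene Cdh17 stood at a mean of 3383 counts per 1000000 of the library's total (CPM), the smooth muscle tropomyosin gene Tpm2 at 958 CPM and the collagen gene Col1a2 at 826 CPM, all of them genes of cell types that colon holds.

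The genes lie in 3 groups on the genome (mm10, GENCODE M21). Wasl is ENSMUSG00000029684 at chr6:24613805-24665009 on the minus strand. Capza2 (ENSMUSG00000015733) is at chr6:17636234-17666972, and Tes (ENSMUSG00000029552) at chr6:17065149-17105828, both on the plus strand. Myo10 (ENSMUSG00000022272) is at chr15:25622525-25813673 on the plus strand. Trio (ENSMUSG00000022263) is at chr15:27730651-28025848 and Rai14 (ENSMUSG00000022246) at chr15:10568969-10714624, both on the minus strand. Coro2a (ENSMUSG00000028337) is at chr4:46536937-46602202 on the minus strand. Counts were given per gene, so they do not separate transcripts. The annotation behind them was not given in the sources used here. Coro2a shares 329 exon bases with Gm16731 on the opposite strand, whose own row had 141 counts. For Tes and Gm4876 it was 144 bases and 98 counts, and for Rai14 and Gm10389 89 bases and 6 counts. Since no strand setting was given, reads in these overlaps cannot be told apart.

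RefSeq (GRCm38.p6) listed 10 start windows for the 7 genes, each from 250 bases before a start to 50 after it. Coro2a, Myo10 and Rai14 had 2 windows each and the others 1. The start pairs differed in base composition. In Rai14 the ratio of observed to expected CpG was 0.769 at the upstream start and 0.291 at the other, in Coro2a 0.998 and 0.16, and in Myo10 0.913 and 0.352. Tes, Capza2, Wasl and Trio had 1 CpG-rich start each, at 0.766 to 0.979. A ratio of at least 0.6 was found in 7 of the 10 windows and in 35.8% of all 32851 windows. The Rai14 pair is printed because its row had the widest spread among libraries and does not separate transcripts of the 2 starts. Each line runs 5′ to 3′ on the minus strand, from base 250 to base 31 before the start, with capitals on CG dinucleotides and on TATAAA.
Rai14 upstream start, chr15:10714129-10714348: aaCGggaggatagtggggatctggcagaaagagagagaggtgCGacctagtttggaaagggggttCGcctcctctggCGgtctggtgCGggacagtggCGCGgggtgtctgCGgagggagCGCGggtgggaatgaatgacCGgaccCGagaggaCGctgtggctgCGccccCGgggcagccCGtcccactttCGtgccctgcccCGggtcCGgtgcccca
Rai14 downstream start, chr15:10713571-10713790: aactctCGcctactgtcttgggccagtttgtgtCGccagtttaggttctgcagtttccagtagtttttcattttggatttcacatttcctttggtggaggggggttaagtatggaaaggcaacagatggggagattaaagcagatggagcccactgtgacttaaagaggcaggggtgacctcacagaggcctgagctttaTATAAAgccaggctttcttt
The first stretch holds 19 CG dinucleotides and no TATAAA. The second holds 2 CG dinucleotides, and a TATAAA that begins 50 bases before the start. Searched on both strands, TATAAA was in 2 of the 10 windows, the downstream starts of Rai14 and Myo10, and in 13.6% of all windows. The TEAD motif CATTCC was in 3 of 10 windows, 1 each of Coro2a, Rai14 and Myo10, against 14.7% of all. The serum response factor's CArG box, a motif of many actin genes, was in none of the 10 windows and in 1.63% of all. These are matches of letters, not measured binding, and the counts do not show which start was used.

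No difference between KO and WT colon in the 7 genes passed edgeR's quasi-likelihood test, with p-values adjusted over all tested rows by Benjamini-Hochberg and a threshold of 0.05. Over all 10 libraries 0 of 7 passed, against 5.63% of all 9736 rows tested and 8.9% of the 427 tested inside the stretches. At an unadjusted p under 0.05 there was 1, Rai14, and DESeq2 and limma-voom also called 0 of 7. All 7 passed the filter on low counts, the smallest count in a library being 405, for Rai14. KO and WT libraries overlapped in CPM for 7 of 7 genes. Inside the stretches 11.5% of tested rows did not overlap.

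**Figure D1:**
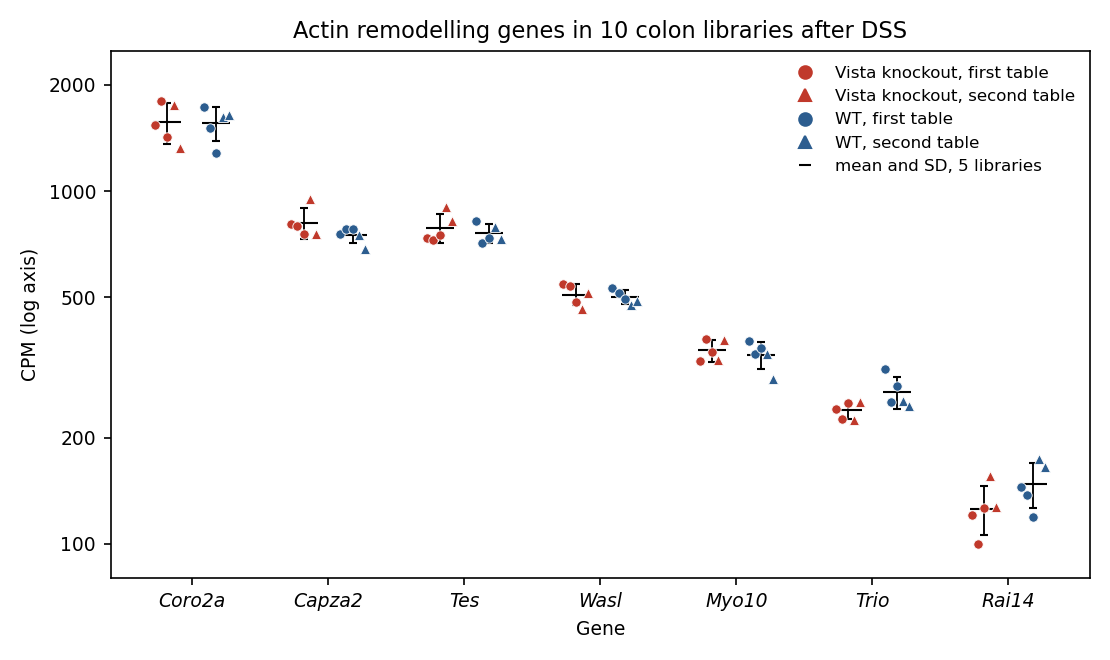
CPM of each gene (log axis) in every library, with knockout in red and WT in blue, circles for the first and triangles for the second deposited table, and bars for the mean and SD of 5 libraries. Knockout and WT points overlap for all 7 genes, and Coro2a is highest and Rai14 lowest.

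Wasl encodes N-WASP, an activator of Arp2/3. It stood at 545, 537, 485, 463 and 515 CPM in KO libraries 1 to 5, against 532.5, 514, 494, 475 and 488 CPM in the WT libraries in the same order. The WT range lay wholly inside the KO range. The fold change of KO over WT was 0.05 ± 0.08 on the log2 scale (SE), with edgeR adjusted p = 0.72. Its 95% interval, 0.921- to 1.17-fold, was the narrowest of the 7 on the log2 scale.

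Trio encodes a guanine nucleotide exchange factor that switches on Rac1 and related small GTPases. Its CPM was 242, 226, 251, 224 and 252.6 in KO and 312, 252.5, 281, 253.3 and 246 in WT. WT 1, WT 3 and, by a small margin, WT 4 were above every KO library, and WT 2 and WT 5 lay among them. The means were 239 ± 13.5 and 269 ± 27.7 CPM (SD, n = 5 each). The log2 fold change was -0.14 ± 0.08 with edgeR adjusted p = 0.339, and 4 of 5 KO libraries were below the WT mean of their own table. Without WT 1 the value was -0.09. Without WT 4, WT 5 and the table term together it was -0.22 (-0.14 without the term alone). That -0.22 sets KO libraries of both tables against WT libraries of the first, so it mixes table with genotype.

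Capza2 encodes an α subunit of capping protein, which closes the barbed ends of filaments. The KO libraries had 807, 796, 757, 951 and 754 CPM and the WT libraries 756, 783, 783, 752 and 687 CPM. KO 4 was the highest and WT 5 the lowest, and the other 8 lay between 752 and 807 CPM. The log2 fold change was 0.14 ± 0.09 (edgeR adjusted p = 0.353), and it was 0.06 without KO 4. The pooled interval reached from 0.966- to 1.26-fold.

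Myo10 encodes myosin X, the motor that travels to filopodial tips. It had 329, 382, 348.5, 331 and 377 CPM in KO and 375, 345, 359, 346 and 293 CPM in WT. WT 5 was lowest and KO 2 highest, with both genotypes mixed in between. The log2 fold change was 0.07 ± 0.09 (edgeR adjusted p = 0.661). Without WT 4, WT 5 and the table term together its sign turned, at -0.005, while without the term alone it was 0.07. In no setting of the fit over all libraries was the adjusted p below 0.565.

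Coro2a encodes a coronin, a WD-repeat protein of a family that binds filamentous actin. Its CPM was 1540.2, 1802, 1426, 1754 and 1326 in KO and 1727, 1513, 1278.5, 1623 and 1641 in WT. The highest library was KO 2 and the lowest WT 3, and KO 5 came next above it. The log2 fold change of 0.04 ± 0.12 (edgeR adjusted p = 0.868) turned negative without KO 2, KO 4 or WT 3, and ran from -0.05 to 0.12 as each library was left out. Its 95% interval of 0.853- to 1.24-fold was the widest on the log2 scale.

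Rai14 encodes ankycorbin, an ankyrin-repeat and coiled-coil protein that binds actin filaments. The KO libraries had 120.5, 99.5, 126, 156 and 127 CPM and the WT libraries 145, 138, 119, 174 and 165 CPM. The means were 126 ± 20 in KO and 148 ± 21.8 in WT (SD, n = 5 each). All 5 KO libraries were below the WT mean of their own table, yet WT 3 was below 4 of them. The log2 fold change was -0.21 ± 0.09 with edgeR adjusted p = 0.204 and an interval of 0.749- to 0.997-fold. Without WT 4, WT 5 and the table term together the value was -0.08, without the term alone -0.21, and without WT 3 -0.27. The -0.08 comes from a fit that mixes table with genotype, and in the first table alone the value was -0.18. The adjusted p was at least 0.149 in every setting tried, DESeq2 and limma-voom included.

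Tes encodes testin, a LIM-domain protein of focal adhesions and cell contacts. Its CPM was 736, 726, 751, 901 and 822 in KO and 822.5, 713, 736.5, 793 and 729 in WT. KO 4 was the highest library, as for Capza2, and the rest were mixed by genotype. The log2 fold change was 0.08 ± 0.08 (edgeR adjusted p = 0.61), with an interval of 0.93- to 1.19-fold.

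Within the first table, 3 KO against 3 WT, the test called 0 of 7 genes, and 0 at an unadjusted p under 0.05, against 6.06% of all 9829 rows and 10.6% of those inside the stretches. DESeq2 called 0 too. The log2 fold changes ran from -0.20 for Trio (edgeR adjusted p = 0.269) to 0.12 for Coro2a (adjusted p = 0.645). Within the second table, 2 against 2, it was again 0 of 7, and 0 unadjusted and by DESeq2, against 0.856% of 9932 rows and 1.38% of those inside. There Rai14 was lowest at -0.26 (edgeR adjusted p = 0.574) and Capza2 highest at 0.25 (adjusted p = 0.622). Trio and Rai14 had negative values in both tables. Wasl, Capza2 and Myo10 had positive ones in both, Wasl at 0.06 and 0.02. Coro2a and Tes differed in sign, with Coro2a at 0.12 and -0.08, and Tes at -0.003 and 0.18. The difference between the tables' genotype effects passed for 0 of 7 genes (0 unadjusted and 0 by DESeq2, smallest edgeR adjusted p = 0.664), against 2.05% of all rows and 2.58% of those inside. A p above the threshold does not show equal levels. The 95% intervals of the 7 genes together reached from 0.749- to 1.26-fold over all libraries, 0.735- to 1.35-fold in the first table and 0.628- to 1.6-fold in the second.

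**Figure D2:**
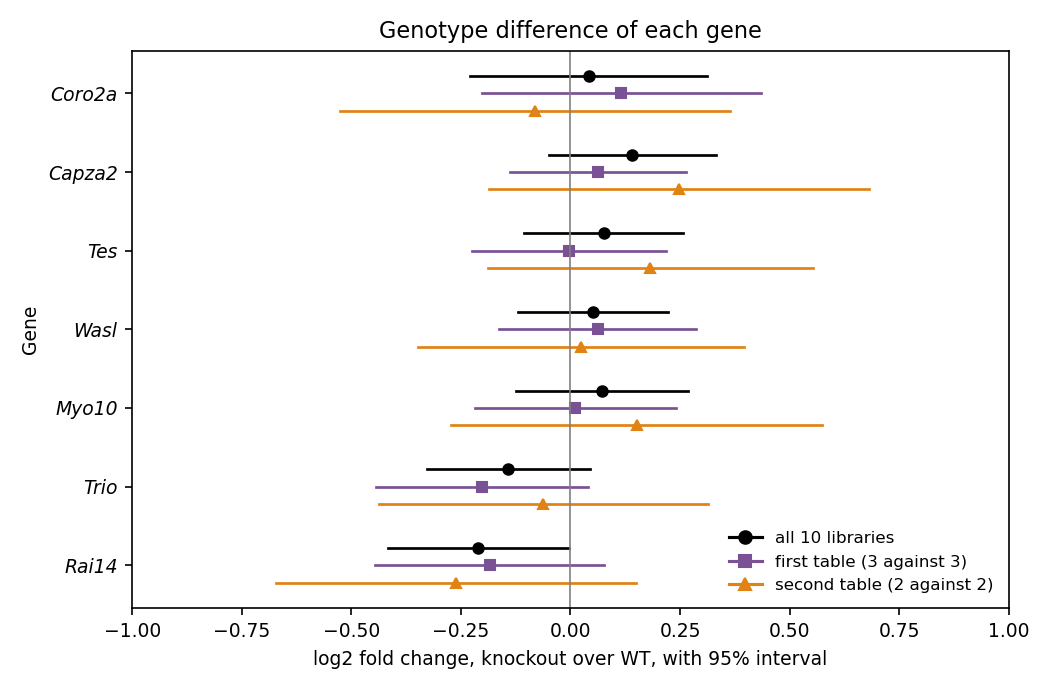
Log2 fold change of knockout over WT with its 95% interval for each gene, over all 10 libraries (black circles), in the first table (purple squares) and in the second (orange triangles). The intervals of 6 genes span 0 in all 3 comparisons, and that of Rai14 ends at -0.004 over all libraries.

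As a list, 5 of the 7 pooled values were above 0 and 2 below. Their median was 0.05 on the log2 scale, beside -0.03 for tested rows inside the stretches and 0.02 for all tested rows. The median size regardless of sign was 0.08, 0.20 and 0.21 in the same order. These sets were not matched in level. The 7 genes had means of 137 CPM or more, while the tested rows included genes as low as Sit1, at 2.71 CPM. No conclusion is drawn from the smaller size. Spread among libraries was described over both genotypes and within each, with no test. Among 198 protein-coding genes of at least 100 CPM inside the stretches the median coefficient of variation over the 10 libraries was 12.4%, and 6 of the 7 were below it. The median of the 7 was 8.67% over all libraries, 9.4% within KO and 8.98% within WT, beside 11.4% and 10.2% for the 198 within KO and within WT. Wasl had 5.52%, which ranked 7 of 198 from the steadiest, and Myo10 (7.73%), Tes (7.79%) and Capza2 (8.67%) followed. Trio had 10.2% and Coro2a 11.5%. Rai14, the lowest of the 7 in CPM, was the exception over all libraries at 16.8%. Its highest library was 1.74 times its lowest, against 1.18 times for Wasl. Within genotype Rai14 (15.9% in KO, 14.7% in WT) and Coro2a (13.1% and 11.1%) were above the medians of the 198. Trio was above in WT only (10.3%).

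**Figure D3:**
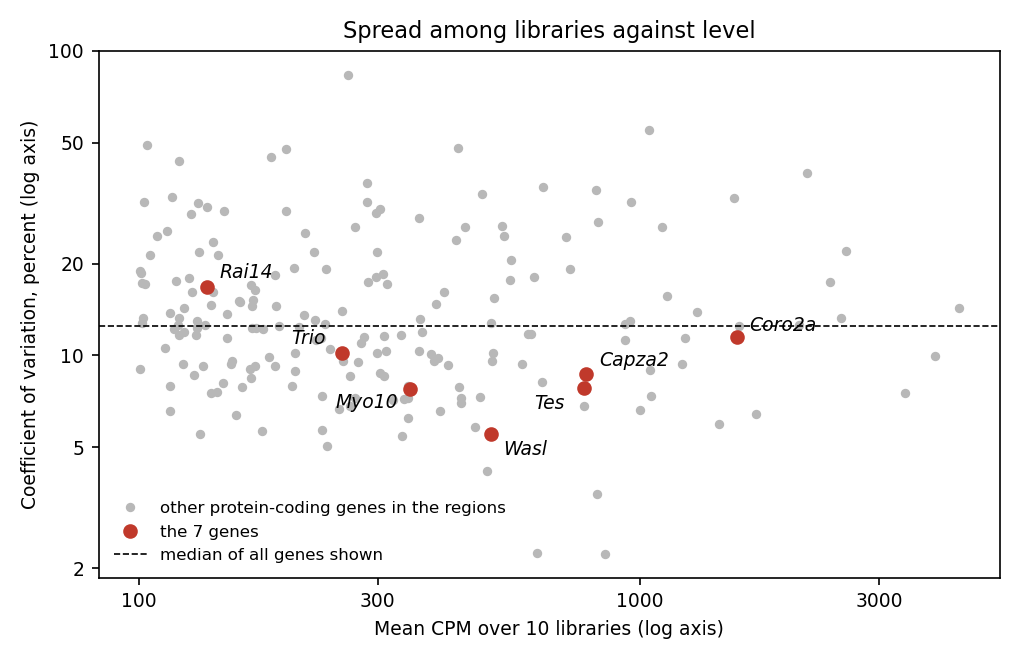
Coefficient of variation over 10 libraries in percent against mean CPM, both on log axes, for 198 protein-coding genes, with the 7 genes in red and the median of all of them dashed at 12.4%. Rai14 lies above the dashed line and the other 6 below it, Wasl lowest at 5.52%.

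Levels between genes were compared as CPM per kilobase of exon (M21, all exons merged). Coro2a was highest at 242 ± 27.7 CPM per kilobase (SD over 10 libraries). Capza2 at 133 ± 11.5 and Tes at 113 ± 8.81 followed, then Wasl at 81.9 ± 4.52. Myo10 stood at 34.4 ± 2.66, Rai14 at 16.2 ± 2.72 and Trio at 10.9 ± 1.11. Each gene was above the next in 10 of 10 libraries, so the order was the same in every KO and WT library. The ranges over libraries overlapped only for Capza2 (117 to 161) with Tes (104 to 132), and for Rai14 (11.8 to 20.5) with Trio (9.59 to 13.3). Merged exons count rare long transcripts in full, which lowers the value of a gene such as Trio whose exons sum to 23395 bases, against 5890 for Capza2.

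Likeness of pattern was taken as the root mean square difference of log2(CPM + 1) over the 10 libraries, each gene centred within each table. The most alike of 354 protein-coding genes inside the stretches was Golph3 for Wasl (0.06), 2610001J05Rik for Capza2 (0.0545) and Chmp5 for Myo10 (0.0686). It was Ndufa5 for Rai14 (0.0745), Tstd3 for Tes (0.075) and Cdh17 for Coro2a (0.104). Over all candidates the median distance was 0.232 to 0.275. Among the 7 themselves Capza2 and Tes were closest, at 0.0871, and the nearest of the 7 to Coro2a was Wasl at 0.162. For each of these 6 a gene outside the list was closer than any within it. The search ran over 354 genes outside and only the rest of the list within. That outcome was therefore likely beforehand, and no conclusion is drawn from it. Steady genes lie close together on this measure whatever they do.

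Other genes inside the stretches were counted from 3 lists of 12 genes, for actin filaments and cytoskeleton, for kinases and signalling, and for adhesion and junctions. Of 12 actin filament and cytoskeleton genes 8 could be tested, and 0 passed edgeR's test over all libraries (1 at an unadjusted p under 0.05, 1 by DESeq2, 0 by limma-voom), where 5.63% of all tested rows and 8.9% of those inside passed. The gene called by DESeq2 was Ppp1r9a, which encodes the actin-binding neurabin and was named after its values were seen. It had a mean of 108 ± 38.2 CPM in KO and 166 ± 21.7 in WT, a log2 fold change of -0.59 ± 0.19 with edgeR adjusted p = 0.096. Of the 4 untested, Lmod2, Actl7a and Actl7b were at 0 counts in all libraries and Fscn3 had 12 counts in sum. Tln1, encoding the integrin activator talin, was at 1039 ± 66.2 and 959.7 ± 39.7 CPM (log2 fold change 0.14 ± 0.07, edgeR adjusted p = 0.241). Tpm2, encoding a tropomyosin, was at 819.7 ± 326.4 and 1097 ± 240.1 CPM (-0.41 ± 0.24, adjusted p = 0.329), and passed only without the filter on low counts (-0.40, adjusted p = 0.00926).

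Among 12 kinase and signalling genes, 1 rose in KO colon and 0 fell over all libraries, a share near the 8.9% of rows called inside the stretches. Met, which encodes the receptor of hepatocyte growth factor, a motogen of epithelial cells, had 330, 372, 328, 374 and 287 CPM in KO and 305, 251, 283, 237 and 215 in WT. Only KO 5 fell within the WT range. The means were 338 ± 35.8 and 258 ± 35.7 CPM (SD, n = 5 each), a log2 fold change of 0.42 ± 0.11 with edgeR adjusted p = 0.0417. DESeq2 and limma-voom also called Met, but the call ended in 9 of 16 other settings, with values of 0.30 to 0.44 and adjusted p from 0.0687 to 0.22. These were the fit without the table term, the omission of WT 4, WT 5 and that term together, and the omission of KO 1, KO 2, KO 4 or any of WT 2 to WT 5. DESeq2 called 1 more gene of the list, Lyn, encoding a Src family kinase of blood cells (0.61, edgeR adjusted p = 0.0717). The most abundant, Arf5 and Tbc1d2, did not pass (-0.10 and 0.05, edgeR adjusted p = 0.569 and 0.803). In the first table alone 1 of the 12 passed, Shb, which encodes an adaptor of receptor tyrosine kinases (0.62 ± 0.12, edgeR adjusted p = 0.0187), where 10.6% of rows inside the stretches did. Its value was 0.01 in the second table and 0.38 over all libraries (edgeR adjusted p = 0.11), and the first table's call ended without KO 1, WT 2 or WT 3 (0.53 to 0.61).

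Of 12 adhesion and junction genes 0 passed over all libraries (1 at an unadjusted p under 0.05, 0 by DESeq2 and by limma-voom), beside 8.9% of rows inside the stretches. The 1 was Ctnnal1, encoding an α-catenin relative, with edgeR adjusted p = 0.12. Cdh17 was at 3393 ± 324.2 CPM in KO and 3372 ± 201 in WT, a log2 fold change of 0.04 ± 0.09 (edgeR adjusted p = 0.839). Epb41l4b, which encodes a FERM-domain protein that links membrane and cytoskeleton, was at 1614 ± 145.1 and 1542 ± 250.8 CPM (0.10 ± 0.11, adjusted p = 0.618). In the first table alone 1 of the 12 passed, beside 10.6% of rows inside. This was Cav2, which encodes caveolin-2, a coat protein of membrane pits. It had 53.4, 39.3, 56.1, 65.2 and 64.5 CPM in KO and 71.2, 86, 69.2, 40 and 36.3 CPM in WT, so KO lay below WT in the first table and above it in the second. On the log2 scale the fold change was -0.57 ± 0.14 in the first table (edgeR adjusted p = 0.0441) and 0.77 ± 0.17 in the second (adjusted p = 0.114). The difference between the tables, 1.34 ± 0.22, passed (edgeR interaction, adjusted p = 0.0113), as it did for 2.58% of rows inside. The first table's call ended when any of its 6 libraries was left out, and the interaction's without WT 4 (1.42, adjusted p = 0.0513) or WT 5 (1.26, adjusted p = 0.0822). The medians of the 3 lists were 0.13, 0.09 and 0.03 on the log2 scale, and that of all tested rows was 0.02.

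**Figure D4:**
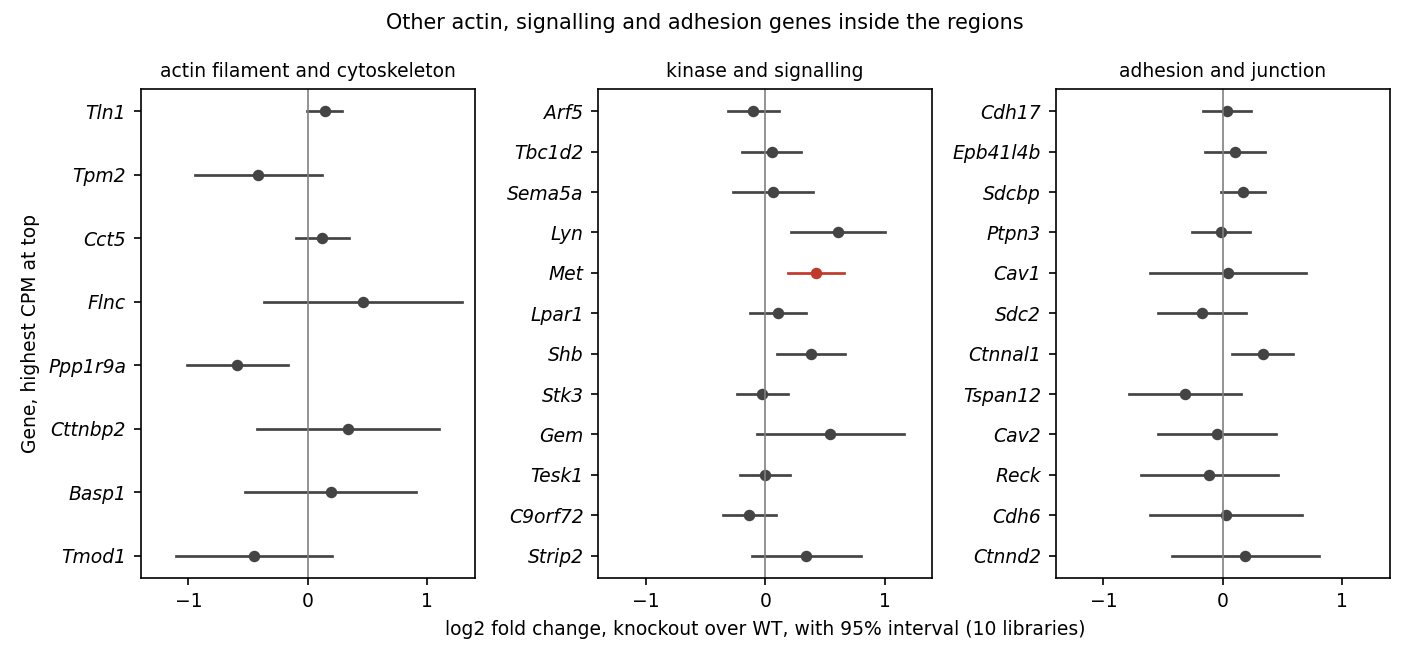
Log2 fold change of knockout over WT over 10 libraries, with its 95% interval, for the tested genes of 3 lists: actin filament and cytoskeleton (8 genes), kinase and signalling (12) and adhesion and junction (12). Met, in red at 0.42, is the gene that passed the test over all libraries.

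Marker lists of the cell types in colon also differed between libraries. Summed CPM of 8 epithelial markers was 8942 to 12140.3 in KO and 10197 to 13046 in WT, lowest in KO 4. The markers did not move together there. Klf4, Grhl2, Galnt12 and Spink4 (689.5 CPM) were at their lowest in KO 4, and Cdh17 (3823 CPM) was at its highest. Of the 8, Cftr (log2 fold change -0.69, edgeR adjusted p = 0.031) and Galnt12 (-0.59, adjusted p = 0.0227) fell in KO and the other 6 did not pass, where 5.63% of all tested rows and 8.9% of those inside did. The Cftr call ended in 7 of 16 other settings (adjusted p from 0.0523 to 0.168) and that of Galnt12 in 3. Of 6 smooth muscle markers, Lmod2, a leiomodin better known from striated muscle, was at 0 counts. Their sum ran from 971 to 2113 CPM in KO and 1076 to 1881 in WT, with 0 of 4 tested genes called by edgeR, DESeq2 or limma-voom and 0 at an unadjusted p under 0.05. For 6 fibroblast markers the sums were 842 to 1522 CPM in KO and 942 to 1654 CPM in WT. Of these 1 gene, Adamts12, at a mean of 9.3 CPM, fell (-1.14, edgeR adjusted p = 0.0127), beside 8.9% of rows called inside. The other 5 did not pass, with log2 fold changes from -0.41 for Col15a1 to 0.62 for Svep1. The median of the 6 was -0.22. The sum of 6 immune markers, Lyn among them, was 476 to 831 CPM in KO. In WT it was 207 to 690.2 CPM, with 239.6 in WT 4 and 207 in WT 5. None of these 6 passed over all libraries by edgeR or limma-voom (1 at an unadjusted p under 0.05, and Lyn by DESeq2). For 4, Pax5, Cd72, Irf5 and Bach2, the genotype effect differed between the tables (edgeR interaction, adjusted p from 0.00316 to 0.0479). This interaction passed for 2.05% of all tested rows and 2.58% of those inside the stretches. Of 3 tested neuron and endocrine markers Tac1 rose (1.498, edgeR adjusted p = 0.00827) and Penk fell (-1.02, adjusted p = 0.0308). Grin3a, the other tested gene, did not pass (-1.35, edgeR adjusted p = 0.153). It had 47.3 CPM in WT 4 and 54.5 CPM in WT 5, and 1.23 to 10.8 CPM in the other libraries. Among all tested rows inside the stretches 8.9% were called. The Penk call ended in 5 of 16 other settings (adjusted p from 0.0635 to 0.0793) and that of Tac1 in 2, among them the fit without the table term (adjusted p = 0.0525). The Tac1 log2 fold change was 1.98 in the first table (edgeR adjusted p = 0.000145) and 0.72 in the second (adjusted p = 0.35). For Tac1 the difference between the tables did not pass (edgeR interaction, adjusted p = 0.0797). None of the 5 marker genes called here passed without WT 4, WT 5 and the table term together. That fit mixes table with genotype. It gave log2 fold changes of -1.13 to -0.45 for those that had fallen and 1.465 for Tac1. The part of these cell types in the values of Rai14, Capza2, Myo10 and Met was not tested.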

How the data were processed

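The data are RNA sequencing of colon, 5 libraries each of Vista knockout and WT mice. The values are read counts per Ensembl gene, not normalized, deposited by the authors in 2 tables. Per the submitters' processing notes, HISAT2 (2.2.1 for the first 6 libraries) and featureCounts 2.0.1 were used. The notes name GRCh38, a human build, for the first 6 libraries and mm10 for the other 4. For annotation and strand the setting was not given in the sources used here.

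The tables were joined on their 55416 identifiers, of which GENCODE M21 named 52083. The 3333 unnamed rows stayed in totals and tests. Rows were read by name only inside the 3 stretches given above, which an earlier analysis of these data had defined from genes used by nearly every cell. The genes and lists were chosen with earlier results of these data known. CPM was computed from column totals. Tests were edgeR 4.0.16 (TMM, filterByExpr by genotype, quasi-likelihood F-test, R 4.3.3) with the table as a term over all 10 libraries, within each table, and for the interaction of genotype and table. The code was tested on simulated data. Alternatives were DESeq2 1.42.0, limma-voom (limma 3.58.1, pooled fit only), scaling by column totals, no filter, no table term, omission of WT 4, WT 5 and the table term together, and of each library. The fit without WT 4, WT 5 and the table term set KO libraries of both tables against WT libraries of the first only. A difference between the tables therefore enters its genotype effect. From the lists, genes that passed over all libraries and the 2 of highest mean CPM were named. The gene most like Trio in pattern is not reported here. Markers, DESeq2 calls, Ctnnal1, Shb and Cav2 were named in addition, after their values were seen. Totals of 3691322 to 4071238 counts gave Rai14, the lowest of the genes, 405 counts or more per library.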

Additional observations from a re-analysis of the deposited data

Results flagged for a closer look

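Capza2 in KO 4 stood apart from the other KO libraries. Its level of 951.2 CPM was separated from the next library by a gap of 0.731 of the group's range, above Dixon's 95% critical value of 0.71 for 5 samples. The other 4 KO libraries had 754.2 to 807.1 CPM. In all, 50 groups of 5 libraries (25 genes, 2 genotypes) were examined. Chance marks about 1 in 20 such groups, or 2.5 of 50, and 1 was found. KO 4 was also the highest library for Tes, at 901.3 CPM, and the lowest for summed epithelial markers, at 8942.4 CPM. Of these markers, Spink4 was at its lowest in KO 4 (689.5 CPM) but Cdh17 at its highest (3823.3 CPM).

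By edgeR's interaction test the genotype effect differed between the 2 deposited tables for 5 genes named in the report. None of them was among the 7. The test passed for 2.05% of all tested rows and 2.58% of those inside the stretches. The second table's log2 fold change of KO over WT exceeded the first's by 1.341 for Cav2 (adjusted p = 0.0113). For the immune markers the excess was 4.575 for Pax5 (adjusted p = 0.00377), 3.078 for Cd72 (0.00566), 1.996 for Irf5 (0.0479) and 3.105 for Bach2 (0.00316). All 5 genes had their lowest WT levels in WT 4 and WT 5.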

How the results depend on the processing

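Of 112 alternative pooled fold changes of the 7 genes, 108 kept their sign and side of the threshold, and 4 changed sign: Myo10 without WT 4, WT 5 and the table term together (-0.005) and Coro2a without KO 2, KO 4 or WT 3 (range with each library left out -0.047 to 0.119). In the first table Myo10 changed sign with column totals (-0.026) and over omissions (-0.064 to 0.073), and Tes without the filter (0.036) and over omissions (-0.057 to 0.092). Omissions within the second table and in the interaction were chosen after seeing the data, and a lone library was assumed to vary like the others. In the second table they gave -0.066 to 0.103 for Wasl, -0.162 to 0.024 for Trio and -0.293 to 0.095 for Coro2a. In the interaction they gave -0.119 to 0.045 for Wasl and -0.223 to 0.061 for Rai14. Omitting a library moved Cdh17 to between -0.027 and 0.079 and Tbc1d2 to between -0.014 and 0.126, and Epb41l4b was -0.037 without WT 4, WT 5 and the term. The 7 genes gave 0 calls in every setting run.

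Counts of all called rows moved more. From 548 pooled calls they became 840 with DESeq2, 1260 without the filter, 78 without WT 4, WT 5 and the table term together (427 without the term alone), and 223 to 1028 with each library left out. Inside the stretches 38 became 59, 85, 6, and 18 to 65. The first table's 596 became 1322 without the filter and 158 to 456 over omissions. The second table's 85 became 439 with DESeq2, 2 without the filter and 0 to 5 over omissions. The interaction's 200 became 343, 717, and 57 to 483. The actin filament list had 1 call with DESeq2, 3 without the filter and 0 to 1 over omissions. The signalling list had 2, 4 and 0 to 3, and 0 without the table term, alone or with WT 4 and WT 5. The adhesion list had 0 to 1 over omissions. The cause was not tested. Column totals in place of TMM moved the median of all rows by less than 0.1. No paired analysis was possible because KO and WT labels share no replicate number.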
